A study of Mus musculus with 8 samples.

Results

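The genes described here are enzymes that convert steroid hormones, grouped around Akr1c14: 5 aldo-keto reductases of family 1C (Akr1c14, Akr1c18, Akr1c12, Akr1c13 and Akr1c19), the hydroxysteroid dehydrogenases Hsd17b4 and Hsd17b11, the steroid 5-alpha-reductase Srd5a1, and the steroid sulfatase Sts. They were taken by gene symbol from the count tables. Of the 9 symbols listed, 8 were read, out of 23420 symbols in all, and Sts was not analysed here. The members were chosen by measured values, the difference of Akr1c14 between the genotypes in these libraries, so the differences of the members between the genotypes are given as a description. Where counts of called members are printed, they restate that choice and support nothing.

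RNA came from uterine stromal cells of female mice at day 3 and gave 4 libraries bearing the label Erbb3f/f and 4 the label Erbb3d/d. Erbb3 is a receptor tyrosine kinase; by convention f stands for an allele with loxP sites around it and d for what is left once Cre has cut. Which Cre line was used, the age of the mice, whether animals were pooled and the event from which the days are counted are not given in the sources used here. Nothing states that the libraries came from separate animals, so p-values measure the spread between these libraries, which may be technical.

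Progesterone and oestrogen set the state of the uterine stroma before implantation, and cells adjust how much hormone reaches its receptor by converting it locally. Reductases of the 5-alpha type make dihydro forms of progesterone and testosterone, and Akr1c14, a 3-alpha-hydroxysteroid dehydrogenase, reduces those dihydro forms further to products that bind the classical receptors poorly. Akr1c18, a 20-alpha-hydroxysteroid dehydrogenase, inactivates progesterone and is best known from the corpus luteum, whereas Sts frees steroids from their sulfates.

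The 5 aldo-keto reductase genes lie side by side on chromosome 13, between 4049011 and 4279433 (GRCm38, GENCODE M21), a stretch of 230 kb. Akr1c14 is at 4049011 to 4090688 on the plus strand, followed by Akr1c18 at 4132615 to 4150654 on the minus strand, Akr1c13 at 4191150 to 4205596 on the plus strand, Akr1c19 at 4228700 to 4252843 on the plus strand, and Akr1c12 at 4268176 to 4279433 on the minus strand. Each has a coding sequence of 969 bases. That of Akr1c14 was 73.6% to 77.0% identical to the other 4, while Akr1c12 and Akr1c13 were 96.2% identical to each other. Of all windows of 150 bases, the read length, in the Akr1c12 transcript, 7.10% also occurred in Akr1c13, so a small part of the reads of this pair cannot be assigned to either gene. The share was 13.1% for Srd5a1, with the overlapping gene Gm17108, 2.80% for Akr1c14, with Gm18857, 2.50% for Akr1c19, with Marcksl1-ps4, and 0% for Akr1c18, Hsd17b4 and Hsd17b11. Of these partners only Marcksl1-ps4 was among the symbols counted. Whether the overlap with Gm17108 or Gm18857 changed the counts of Srd5a1 or Akr1c14 can therefore not be seen. Srd5a1 is on the same chromosome at 69573449 to 69611442, and Hsd17b11 on chromosome 5 at 103989762 to 104021919, both on the minus strand.

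The likeness of Akr1c12 and Akr1c13 extends into their promoters, which are shown so that it can be seen base by base. The 250 bases before each start site (RefSeq, GRCm38.p6), at chr13:4279400-4279649 on the minus strand for Akr1c12 and chr13:4190937-4191186 on the plus strand for Akr1c13, had 235 identical bases in an alignment of 254 columns (92.5%). Capitals mark the bases that differ or have no partner in the other window.
Akr1c12: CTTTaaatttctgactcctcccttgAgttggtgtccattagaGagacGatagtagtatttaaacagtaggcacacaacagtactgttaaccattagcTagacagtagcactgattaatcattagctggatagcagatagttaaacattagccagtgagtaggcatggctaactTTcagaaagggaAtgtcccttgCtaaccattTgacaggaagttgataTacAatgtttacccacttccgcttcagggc
Akr1c13: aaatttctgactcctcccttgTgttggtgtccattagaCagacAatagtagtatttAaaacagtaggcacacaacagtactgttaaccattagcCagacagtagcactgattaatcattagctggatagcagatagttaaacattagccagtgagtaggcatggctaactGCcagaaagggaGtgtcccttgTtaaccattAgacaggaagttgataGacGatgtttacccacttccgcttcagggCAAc

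The promoters of the most abundant members, Akr1c14 (chr13:4059341-4059590, plus strand) and Hsd17b11 (chr5:104021797-104022046, minus strand), are shown because these genes had the highest read counts in Erbb3d/d. RefSeq promoters matched 7 of the 9 symbols. The Akr1c14 window lies inside the GENCODE M21 gene, which begins at 4049011. The Hsd17b11 window runs into its gene, which ends at 104021919, and the Akr1c12 and Akr1c13 windows also run into theirs. For these genes the RefSeq start site used here is therefore not the outermost GENCODE start, and part of each window may be transcribed. Capitals mark matches to 7 motifs searched on both strands: TATAAA of the core promoter, CCAAT bound by the NF-Y complex, GGGCGG bound by Sp proteins, TGACNNNGC of antioxidant response elements, TGANTCA bound by Jun and Fos proteins, the palindrome bound by progesterone and glucocorticoid receptors, and the palindrome bound by oestrogen receptors.
Akr1c14: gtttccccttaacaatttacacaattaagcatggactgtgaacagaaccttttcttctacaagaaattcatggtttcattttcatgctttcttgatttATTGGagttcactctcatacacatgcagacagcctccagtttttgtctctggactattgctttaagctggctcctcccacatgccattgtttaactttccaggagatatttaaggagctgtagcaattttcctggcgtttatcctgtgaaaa
Hsd17b11: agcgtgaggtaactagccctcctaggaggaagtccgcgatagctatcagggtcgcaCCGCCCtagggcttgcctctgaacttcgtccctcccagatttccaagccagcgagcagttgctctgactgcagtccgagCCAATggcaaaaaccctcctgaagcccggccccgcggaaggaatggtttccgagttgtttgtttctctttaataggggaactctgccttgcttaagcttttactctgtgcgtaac

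The windows of Akr1c14 and Hsd17b11 are of different kinds. That of Akr1c14 was 38.8% G and C with 1 CG dinucleotide, and that of Hsd17b11 54.8% with 13, against medians of 52.4% and 6 over 32851 RefSeq promoter windows of this length. CCAAT, on the minus strand in Akr1c14 and the plus strand in Hsd17b11, occurred in 33.8% of those windows, and GGGCGG, matched on the minus strand in Hsd17b11, in 32.7%. Neither receptor palindrome was found in the 7 promoters, and over all windows they occurred in 0.00913% and 0.0639%, so matches of this length are rare anywhere.

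Reads in genes numbered 8578575 to 12854367 per library, and 14598 genes passed the filter on low counts. The targeted gene did not follow the labels: Erbb3 had 9.64 ± 2.24 CPM (SD, n = 4) in the libraries labelled Erbb3f/f and 13.9 ± 4.56 CPM (SD, n = 4) in those labelled Erbb3d/d, where CPM is counts per 1000000 reads in genes, with the library size scaled. Reads of a deleted exon are not counted apart from other reads of Erbb3, and higher or lower in Erbb3d/d always refers to the label. The libraries held stromal transcripts in quantity: all 12 stromal markers had reads in every library, led by Col3a1 and Col1a1 with 3447 ± 409 and 2846 ± 479 CPM (SD, n = 4 each) in Erbb3f/f.

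Levels of different genes were compared as CPM per kilobase of exon. In the Erbb3f/f libraries Hsd17b11, a short-chain dehydrogenase of lipid droplets, stood first among the members with 16.4 ± 1.81, and its 4 values lay above those of every other member. Akr1c14 was next with 9.51 ± 1.70, overlapping Hsd17b4 with 8.31 ± 0.481, and Srd5a1 had 4.81 ± 0.793, separate from the genes above and below it in the order (SD, n = 4 each). The remaining reductases were far lower, Akr1c13 with 0.953 ± 0.391, Akr1c19 with 0.460 ± 0.264 and Akr1c12 with 0.393 ± 0.219 (SD, n = 4 each), and each of these 3 overlapped its neighbour. Among 13695 tested genes with a known length, Akr1c14 ranked above 59.3% of genes in Erbb3f/f and above 86.0% in Erbb3d/d.

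In the Erbb3d/d libraries Akr1c14 had the highest mean of the members, 26.0 ± 8.05 CPM per kilobase, with values overlapping those of Hsd17b11, which had 24.5 ± 6.07 (SD, n = 4 each). The order of the other 6 members by mean was that of the Erbb3f/f libraries. With the length of the longest transcript in place of the merged exons, Hsd17b4 had 10.5 and exchanged places with Akr1c14 in Erbb3f/f, so the order of these neighbours depends on the gene model.

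**Figure D1:**
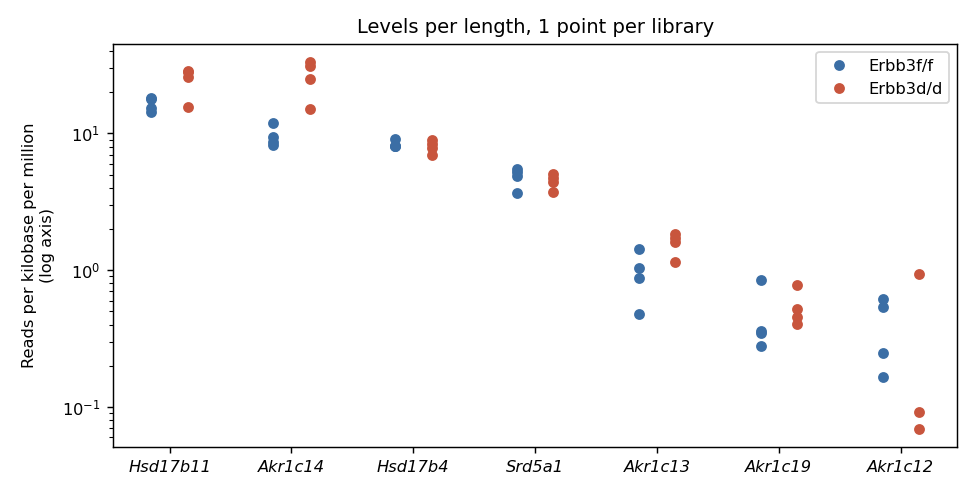
CPM per kilobase of merged exon on a log axis, 1 point per library, for the 7 members with reads in Erbb3f/f; 1 Erbb3d/d library with 0 reads of Akr1c12 cannot be drawn. Hsd17b11, Akr1c14, Hsd17b4 and Srd5a1 lie above 3 CPM per kilobase, and the other 3 genes below 2.

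Akr1c14 had a higher CPM in every Erbb3d/d library than in any Erbb3f/f library. Erbb3f/f libraries 1 to 4 held 30.3, 27.8, 38.7 and 26.5 CPM of it (311, 265, 493 and 234 reads). Erbb3d/d libraries 1 to 4 held 100.8, 49.1, 80.3 and 106.9 CPM (1026, 421, 1019 and 1219 reads). The CPM values of the genotypes did not overlap, although Erbb3d/d replicate 2 lay much closer to the highest Erbb3f/f library than the other 3 did.

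Akr1c14 averaged 30.8 ± 5.52 CPM over Erbb3f/f against 84.3 ± 26.1 CPM over Erbb3d/d (SD, n = 4 each), a ratio of 2.74 and a fitted log2 fold change of 1.45 (SE 0.23). In the fit across all genes, 0 of the 6 members tested were called (edgeR, quasi-likelihood, threshold 0.05 on the adjusted p), where the share of all genes tested was 0%. At an unadjusted p under 0.05 there were 2 members, Akr1c14 and Hsd17b11, both higher in Erbb3d/d, as were 6.64% of all genes, with 4.97% lower. DESeq2 called 1 member, Akr1c14, and 1.79% of genes, and a fit blocked on replicate number also called Akr1c14 alone of the members and 0.356% of genes. Akr1c14 was also the 1 tested member whose 4 values did not overlap between the genotypes, a separation in that direction held by 2.56% of genes tested, with 2.48% separated the other way. Of the 6 tested members 4 had a log2 fold change above 0, with a median of 0.40, where 48.0% of all genes tested were above 0 and their median was -0.01. The value of Akr1c14 that led to the choice of the group is one of these 6, and it ranked 81 from the top among 14518 genes of at least 1 CPM.

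Leaving out single libraries changed the size of the difference, not its direction. The log2 fold change was lowest, 1.32, without Erbb3d/d replicate 4, was 1.58 without Erbb3f/f replicate 3, and was highest without Erbb3d/d replicate 2. Without Erbb3d/d replicate 2 the Erbb3d/d mean of Akr1c14 was 96.0 ± 14.0 CPM (SD, n = 3) and the log2 fold change 1.64 (SE 0.15), and edgeR then called 2 members, Akr1c14 and Hsd17b11, and 1.75% of all genes. In these bulk samples, a change in the number of cells of a type and a change in RNA per cell cannot be told apart.

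**Figure D2:**
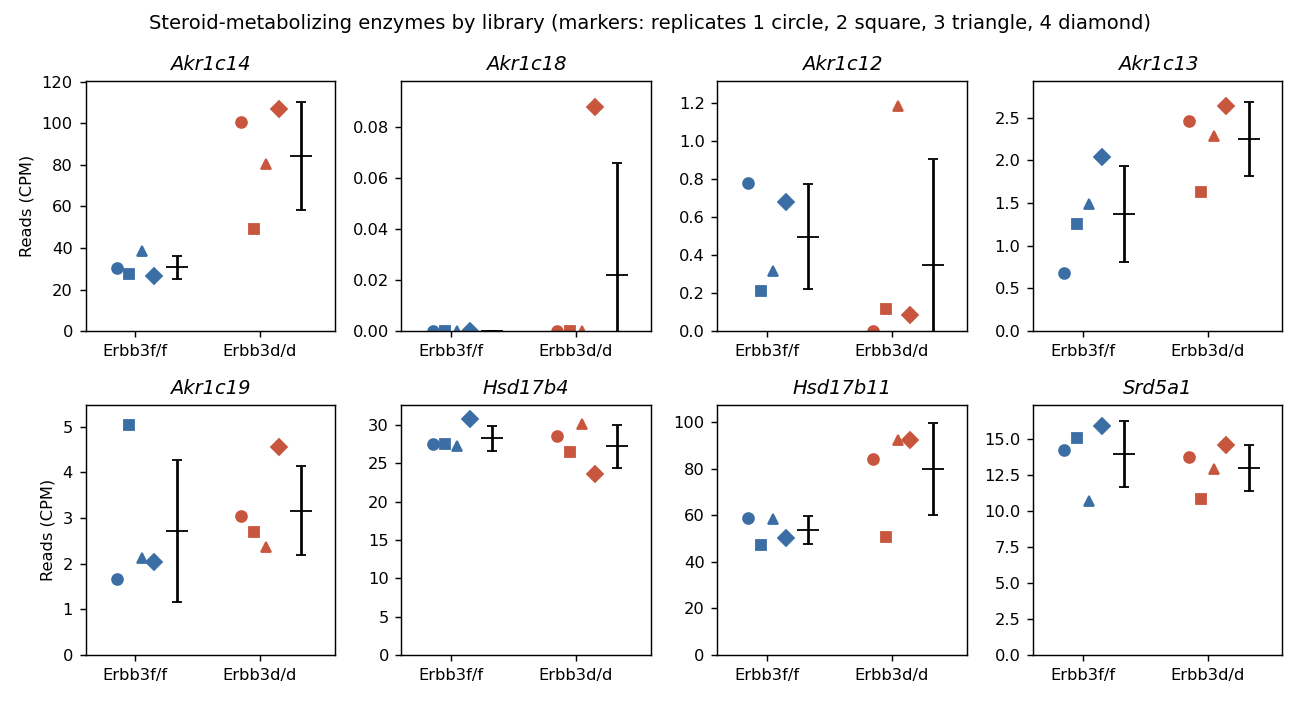
Normalised reads (CPM, linear axes from 0, a scale of its own for each gene) of the 8 members in each library, with replicates by symbol and the mean ± SD in black. Akr1c14 is separate between the genotypes, from 26.5 to 38.7 CPM over Erbb3f/f and from 49.1 to 106.9 CPM over Erbb3d/d, while Hsd17b4 and Srd5a1 overlap.

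The close relatives of Akr1c14 were scarce. Akr1c18 had 0 reads in 7 libraries and 1 read in Erbb3d/d replicate 4. A count of 0 allows up to 3 reads, or 0.236 to 0.350 CPM in these libraries, so this progesterone-inactivating enzyme was at or below the limit in both genotypes.

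Akr1c13, an aldo-keto reductase with broad substrates, had 0.682, 1.26, 1.49 and 2.04 CPM across Erbb3f/f libraries 1 to 4, from 7, 12, 19 and 18 reads. Across Erbb3d/d libraries 1 to 4 it had 2.46, 1.63, 2.29 and 2.63 CPM, from 25, 14, 29 and 30 reads. Erbb3d/d libraries 1, 3 and 4 were above all Erbb3f/f libraries and library 2 was not, and the log2 fold change was 0.73 (SE 0.40). Akr1c12 was too low for the test, with 20 reads in the Erbb3f/f and 17 in the Erbb3d/d libraries, of which 15 were in Erbb3d/d replicate 3. Because the pair shares sequence, the sum of both was also taken. It averaged 1.86 ± 0.590 CPM over Erbb3f/f against 2.60 ± 0.709 CPM over Erbb3d/d (n = 4 each, SD), and the libraries overlapped.

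Akr1c19, another aldo-keto reductase of the cluster, had 1.66, 5.03, 2.12 and 2.04 CPM across Erbb3f/f libraries 1 to 4 and 3.05, 2.68, 2.36 and 4.56 CPM across Erbb3d/d libraries 1 to 4. The highest of all 8 values was in an Erbb3f/f library, and the log2 fold change was 0.23 (SE 0.42). Its sign depended on the setting: the value was -0.16 (SE 0.60) with the smooth muscle marker mean as a covariate.

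Akr1c14 therefore made up most of the reads of the cluster. Its share of the reads of the 5 aldo-keto reductases was 90.7%, 81.0%, 90.8% and 84.8% across Erbb3f/f libraries 1 to 4, and 94.8%, 91.7%, 93.2% and 93.6% across Erbb3d/d libraries 1 to 4. The genotypes did not overlap, but the closest libraries did within counting error. The highest Erbb3f/f share had a 95% exact binomial interval of 88.0% to 93.1%, and the lowest Erbb3d/d share one of 88.8% to 94.1%. These intervals cover counting error only, not the spread between libraries. Since Akr1c14 was chosen for its difference, the separation of its share between the genotypes is a description only.

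Hsd17b11, which oxidises the 17-beta-hydroxyl group of androgen metabolites, was the other abundant member with higher values in Erbb3d/d. It had 58.8, 47.0, 58.3 and 50.2 CPM across Erbb3f/f libraries 1 to 4, from 604, 449, 742 and 444 reads. Across Erbb3d/d libraries 1 to 4 it had 84.3, 50.7, 92.2 and 92.4 CPM, from 858, 435, 1170 and 1053 reads. Replicates 1, 3 and 4 lay above every Erbb3f/f library and replicate 2 among them.

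Hsd17b11 averaged 53.6 ± 5.90 CPM over Erbb3f/f against 79.9 ± 19.8 CPM over Erbb3d/d (n = 4 each, SD), with a log2 fold change of 0.58 (SE 0.18). Without Erbb3d/d replicate 2 it was 0.75 (SE 0.11). With the epithelial marker mean as a covariate the value was 0.38 (SE 0.24), against 1.43 (SE 0.34) for Akr1c14 in the same fit.

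Hsd17b4, the peroxisomal bifunctional enzyme that shortens very long fatty acids and can oxidise oestradiol, lies on chromosome 18 at 50128201 to 50196269 on the plus strand and was nearly flat. It had 27.6, 27.5, 27.3 and 30.8 CPM across Erbb3f/f libraries 1 to 4 and 28.6, 26.5, 30.2 and 23.6 CPM across Erbb3d/d libraries 1 to 4. Values of the genotypes overlapped, and the log2 fold change was -0.06 (SE 0.12). Without Erbb3d/d replicate 4 it was 0.01 (SE 0.12).

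Srd5a1, the reductase that acts a step before Akr1c14, had 14.2, 15.1, 10.7 and 15.9 CPM across Erbb3f/f libraries 1 to 4. Across Erbb3d/d libraries 1 to 4 it had 13.8, 10.8, 12.9 and 14.6 CPM. All 4 Erbb3d/d values were inside the range of the Erbb3f/f libraries, with a log2 fold change of -0.10 (SE 0.18).

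Because these enzymes act in sequence, their levels per length were set against each other in each library. Akr1c14 was at 1.91, 1.65, 3.26 and 1.49 times the level of Srd5a1 across Erbb3f/f libraries 1 to 4, and at 6.58, 4.07, 5.58 and 6.60 times across Erbb3d/d libraries 1 to 4. Against Hsd17b11 the ratio was 0.519 to 0.670 in Erbb3f/f and 0.878 to 1.21 in Erbb3d/d. Values of both ratios did not overlap between the genotypes, and since Akr1c14 was chosen for its difference this is a description only. These ratios describe transcripts and not enzyme activity.

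**Figure D3:**
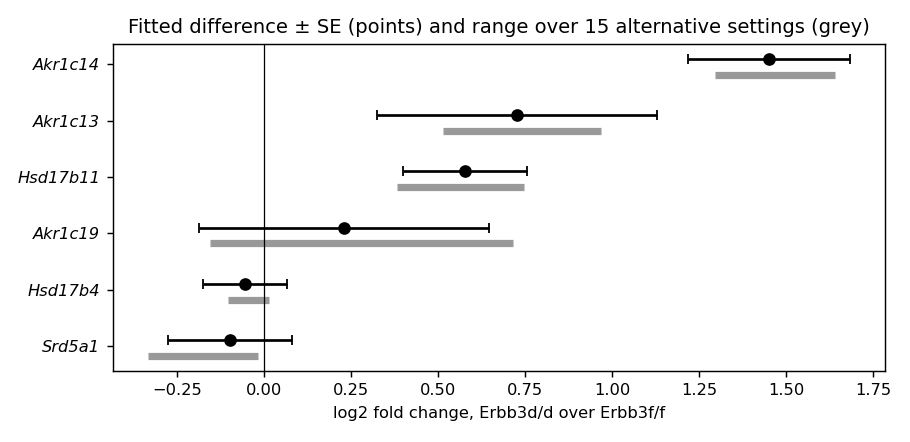
Fitted log2 fold change, Erbb3d/d over Erbb3f/f, of the 6 members that passed the filter on low counts, with its SE (black) and the range over 15 alternative settings (grey). Akr1c14 lies between 1.30 and 1.64 in every setting, and the ranges of Akr1c19 and Hsd17b4 cross 0.

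Markers of other cells also differed between the labels, which bears on genes that those cells may express. Of 16 epithelial markers 14 had a higher mean in Erbb3d/d, and their summed level was 1080 to 1790 CPM over Erbb3f/f and 1652 to 2770 CPM over Erbb3d/d. Of 10 smooth muscle markers 9 had a higher mean there, with sums of 1778 to 2899 and 2749 to 5700 CPM. Of 12 stromal markers 3 had a higher mean in Erbb3d/d, with sums of 12040 to 14669 and 10165 to 13483 CPM. No marker of these 3 lists was at 0 in any library. Of these 3 lists edgeR called 0 markers, as of all genes tested. At an unadjusted p under 0.05 there were 11 epithelial and 9 smooth muscle markers higher, against 6.64% of all genes tested. Lower at that threshold were 5 stromal markers, against 4.97% of all genes. DESeq2 called 4 epithelial and 3 smooth muscle markers higher and 2 stromal markers lower, against 1.79% of genes in either direction.

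The sums of each of these lists overlapped between the genotypes. Taken singly, 3 epithelial and 3 smooth muscle markers did not overlap and were higher in Erbb3d/d, as were 2.56% of all genes tested. Another 2 stromal markers did not overlap and were lower, as were 2.48% of all genes. The epithelial sum was 1790 CPM in Erbb3f/f replicate 4, and 1652 and 1656 CPM in Erbb3d/d replicates 1 and 2. Smooth muscle sums were 2805 and 2899 CPM in Erbb3f/f replicates 1 and 2, and 2749 CPM in Erbb3d/d replicate 3. The log2 fold change of Akr1c14 was 1.30 (SE 0.35) when the smooth muscle mean entered the fit, and the part of RNA from other cells in the Akr1c14 values was not tested. Epithelial sums were highest in Erbb3d/d replicates 3 and 4, with 2714 and 2770 CPM, which also had the highest Hsd17b11. The other libraries did not follow this order. Erbb3d/d replicates 1 and 2, with nearly equal sums of 1652 and 1656 CPM, had 84.3 and 50.7 CPM of Hsd17b11. In Erbb3f/f the lowest sum, 1080 CPM in replicate 3, went with 58.3 CPM of Hsd17b11. The highest, 1790 CPM in replicate 4, went with 50.2 CPM. The part of epithelial RNA in the Hsd17b11 values beyond the covariate fit was not tested.

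**Figure D4:**
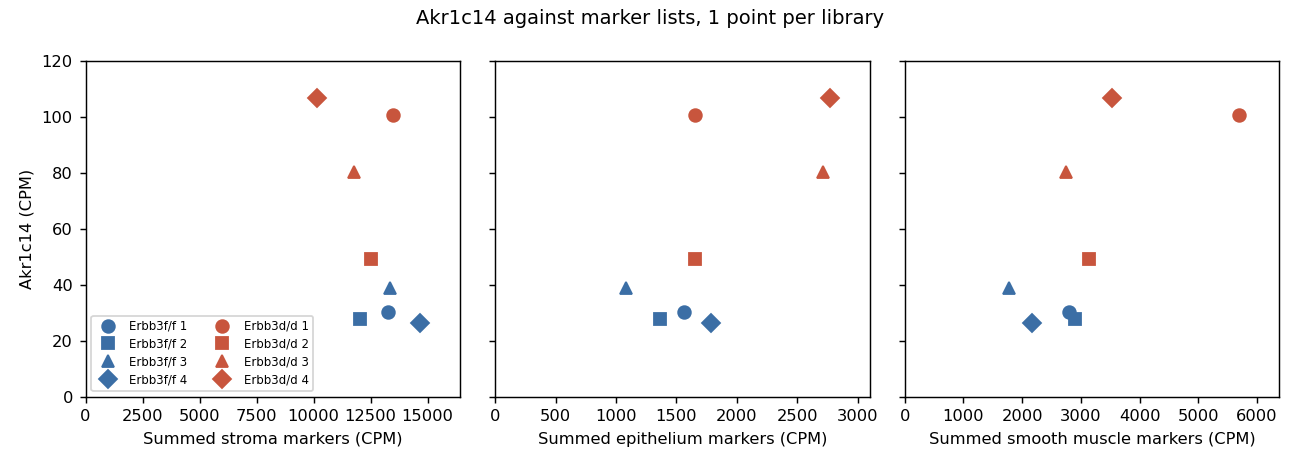
Akr1c14 (CPM, vertical) against the summed CPM of 12 stromal, 16 epithelial and 10 smooth muscle markers (horizontal), 1 point per library, colours for genotype and symbols for replicate. The marker sums of the genotypes overlap in each panel, and epithelial sums run from 1080 to 1790 CPM in Erbb3f/f and from 1652 to 2770 CPM in Erbb3d/d.

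Markers of other cells were read the same way. Of 10 luteal and ovarian markers, Cyp19a1 and Fshr were at 0 in every library and Cyp11a1, Lhcgr, Hsd3b1, Cyp17a1 and Amh in some. The list summed to 33.2 to 49.3 CPM over Erbb3f/f and 40.0 to 53.0 CPM over Erbb3d/d, mostly Star and Inha. Of 8 fat cell markers 7 had a higher mean in Erbb3d/d, and Lpl, which is not particular to fat cells, carried most of their sum of 90.4 to 170.6 CPM over Erbb3f/f and 132.4 to 179.7 CPM over Erbb3d/d. Adipoq and Plin1 were at 0 in some libraries. Endothelial markers summed to 246 to 505 and 257 to 533 CPM (9 of 10 with a higher mean in Erbb3d/d), and immune markers to 947 to 2375 and 1317 to 1679 CPM (4 of 9), in Erbb3f/f and Erbb3d/d.

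The wider set of steroid-converting genes, 45 enzymes and cofactors other than the members, was read to set the members beside their pathway. Of these, 44 were read and 20 were tested. None of the 20 was called by edgeR, in either direction, where the share of all genes tested was also 0%. DESeq2 called none of them either, against 1.79% of genes. At an unadjusted p under 0.05 there was 1 higher and 1 lower, against 6.64% and 4.97% of all genes tested. These counts were near those shares. With 10 genes above 0 and 10 below, the median log2 fold change was -0.01, equal to the median of -0.01 over all 14598 genes tested.

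The strongest transcript of the set was Hsd11b2, which inactivates glucocorticoids, with 514 ± 38.4 CPM per kilobase in Erbb3f/f (SD, n = 4), and other abundant transcripts were Hsd17b12 with 29.5 ± 1.45, the mitochondrial dehydrogenase Hsd17b10 with 22.9 ± 4.05, and Sumf1, which activates sulfatases, with 20.9 ± 1.83 (SD, n = 4 each). Hsd11b2 was uneven in the Erbb3d/d libraries, with 688, 899, 296 and 141 CPM in replicates 1 to 4 against 879 to 1039 CPM in Erbb3f/f. Replicate 2 lay within the Erbb3f/f range and the other 3 below it. The log2 fold change of -0.90 (SE 0.48) did not pass the test (edgeR, adjusted p = 0.506).

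The genes with the smallest p in each direction did not pass either. On the higher side these were Star, which carries cholesterol into mitochondria, with 17.7 ± 3.88 CPM over Erbb3f/f against 23.4 ± 2.83 CPM over Erbb3d/d (n = 4 each, SD; edgeR, adjusted p = 0.414), then Hsd17b7, at 0.38 (SE 0.20), and Cyp21a1, at 1.38 (SE 0.78), on the log2 scale. On the lower side were Hsd17b10, with a log2 fold change of -0.38 (SE 0.16; edgeR, adjusted p = 0.399), Hsd11b2, and the oestrogen hydroxylase Cyp1b1, at -1.93 (SE 1.19). Cyp1b1 ranged from 11.1 to 169.4 CPM within Erbb3f/f and had 3.73, 66.6, 1.65 and 3.51 CPM in Erbb3d/d replicates 1 to 4. Replicate 2 lay within the Erbb3f/f range and replicates 1, 3 and 4 below it.

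Transcripts of several enzymes that make steroids from cholesterol were scarce. Summed over all 8 libraries, the side-chain cleavage enzyme Cyp11a1 had 32 reads, Cyp17a1 had 7, and Hsd3b1 had 2. The aromatase Cyp19a1, the oestrogen sulfotransferase Sult1e1, Akr1c6 and Hsd3b5 had 0 reads. Star had 1761 reads, Fdx1 884, Fdxr 1069 and Por 5883, so the scarcity did not extend to the whole set. The type 2 reductase Srd5a2 had 8 reads, against 1130 for Srd5a1.

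The receptors of these hormones were also read. Of 7 tested receptors and binding proteins, 0 were called by edgeR, as of all genes tested, and 0 by DESeq2, against 1.79% of genes. At an unadjusted p under 0.05 there were 0, against 6.64% of all genes tested higher and 4.97% lower. Levels per length in Erbb3f/f were 79.5 ± 8.81 for the progesterone receptor Pgr, 31.6 ± 4.93 for the oestrogen receptor Esr1 and 21.05 ± 1.90 for the glucocorticoid receptor Nr3c1 (SD, n = 4 each). Their log2 fold changes were -0.32 (SE 0.15), 0.06 (SE 0.15) and 0.15 (SE 0.10). In the peroxisomal pathway of Hsd17b4, 0 of 12 tested genes were called by edgeR and 0 by DESeq2, against 0% and 1.79% of all genes. At an unadjusted p under 0.05 there was 1, the carnitine transferase Crot, at -0.32 (SE 0.13), where 4.97% of all genes were lower. Abcd2, a fatty acid carrier of the peroxisome, had the smallest p on the higher side, at 0.34 (SE 0.21).

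The genes whose pattern over the 8 libraries was most like that of Akr1c14 were found by the root mean square difference of log2(CPM + 0.5), each gene centred on its own mean. Among 14517 genes the nearest were AI836003 (0.189), the oxytocin receptor Oxtr (0.232), the urokinase Plau (0.232), the transcriptional cofactor Zfpm2 (0.255) and Agpat9 (0.273), where the median over all genes was 0.809. Oxtr had 28.2, 34.3, 29.0 and 28.9 CPM across Erbb3f/f libraries 1 to 4 and 95.8, 36.9, 67.3 and 97.7 CPM across Erbb3d/d libraries 1 to 4, so that, as for Akr1c14, Erbb3d/d replicate 2 was the lowest of its genotype. Plau had 14.9 to 21.4 CPM over Erbb3f/f and 31.3 to 69.1 CPM over Erbb3d/d. Of the members, Hsd17b11 came nearest, at rank 121 with 0.458, then Akr1c13 at rank 418, and Srd5a1 was at rank 8106. The likeness includes the difference between the genotypes.

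**Figure D5:**
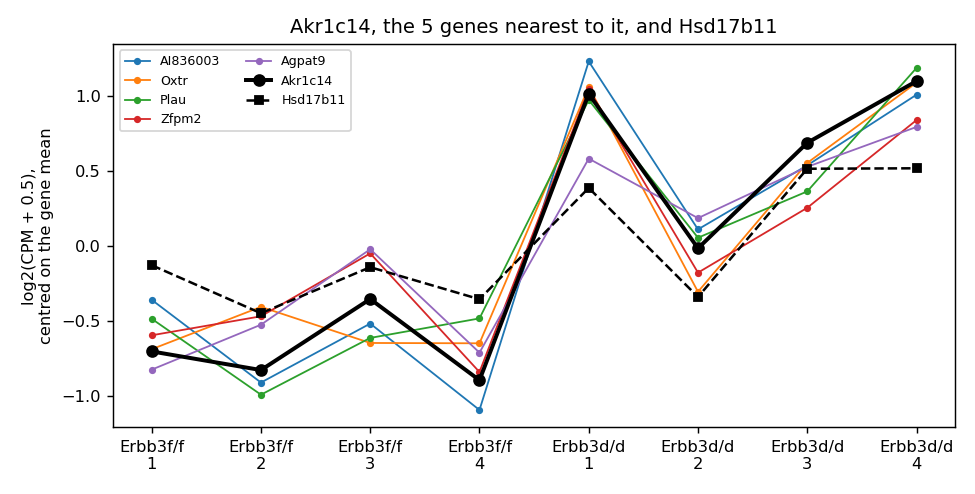
log2(CPM + 0.5) centred on each gene's mean in the 8 libraries, for Akr1c14 (thick line), the 5 genes nearest to it and Hsd17b11 (dashed); lines join libraries to guide the eye and mark no order. In each gene drawn, Erbb3d/d replicate 2 has the lowest value of its genotype, which for the 5 nearest genes restates how they were picked.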

How the data were processed

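Polyadenylated RNA was sequenced as non-directional pairs of 150 bases, per the labels' protocols. The authors deposited raw counts per gene symbol, 1 table per library; HISAT2, SAMtools, HTSeq and StringTie and the build mm10 (GRCm38) are named in the submitters' processing notes, while their options and the annotation are not given in the sources used here. The 5 lines that name no gene (70.9% to 73.0% of entries) were left out. The largest of them, entries that matched no counted feature, held 48.3% to 50.8% of all entries per library, and 27.0% to 29.1% were in genes. Without strand, reads of overlapping genes on opposite strands cannot be told apart.

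Counts were fitted with edgeR 4.0.16 (R 4.3.3): filterByExpr, TMM scaling, quasi-likelihood test of genotype over all 8 libraries, Benjamini-Hochberg adjustment at 0.05 over 14598 genes. The SE is the log2 fold change divided by the root of F. The script was tested on simulated data. DESeq2 1.42.0 and the other alternatives appear in the closing section. Lengths came from GENCODE M21, which matched 21737 symbols (92.8%). Members and gene lists were chosen with earlier results of these data known. Genes named outside the members were those with the smallest p per direction in each list, those with the highest level per length, receptors, the 5 nearest to Akr1c14, Erbb3, and the 2 most abundant markers per list; markers at 0 and enzymes with few reads were named after their values were seen. Some genes that this rule names are not reported here.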

Additional observations from a re-analysis of the deposited data

Results flagged for a closer look

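Each member was searched in each genotype for a single library set apart from the other 3. Of 15 such sets 4 held one, where chance gives about 1 in 20, or 0.75, for values without ties; that rate does not hold for the lowest counts. In Erbb3d/d replicate 4 Akr1c18 had 0.0877 CPM, from 1 read, where the other 3 libraries had 0, so that any single read would stand apart. In Erbb3d/d replicate 3 Akr1c12 had 1.18 CPM, from 15 reads, and the nearest library 0.117 CPM. In Erbb3f/f replicate 2 Akr1c19 had 5.03 CPM, from 48 reads, and the nearest library 2.12 CPM. In Erbb3f/f replicate 4 Hsd17b4 had 30.8 CPM, and the nearest library 27.6 CPM, in a group whose values span little. The first 3 rest on few reads.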

How the results depend on the processing

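Of 179 values recomputed under another setting, 171 stayed alike. For counts of called genes this meant an unchanged count, and for fold changes and levels a shift within 1 SD between replicates. For fold changes the larger SD of the genotypes was used. Among the values that stayed alike, the sign changed for Akr1c19 with the smooth muscle covariate (-0.16) and for Hsd17b4 without Erbb3d/d replicate 4 (0.01). The wider steroid enzyme, receptor and peroxisomal lists had 0 called genes in all 15 alternative settings. Over all genes, 0 were called in edgeR's test, 271 with DESeq2, 52 with the replicate number as a block and 259 without Erbb3d/d replicate 2. Of the members, 1 was called with DESeq2, 1 with the block (0.356% of all genes) and 2 without Erbb3d/d replicate 2; leaving out single libraries gave 0 to 2 called members and 0 to 259 called genes. Calls of members restate how they were chosen. The numbers were not taken to pair the libraries, since not every same-numbered pair correlated above 0.1: correlations of deviations were 0.0998 to 0.241 between same-numbered libraries and -0.31 to 0.32 between others, and not every library correlated best with its own number. The log2 fold change of Akr1c14 ran from 1.32 to 1.64 when single libraries were left out, and was 1.41 with the block, while that of Akr1c19 ran from 0.00 to 0.72. Level per length in Erbb3f/f, with the longest transcript, was 10.5 for Hsd17b4 and 24.0 for Hsd17b11. Read number limits Akr1c12, Akr1c13, Akr1c18 and Akr1c19. The cause of these changes was not tested.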
